A study of Canis lupus familiaris with 40 samples.

Results

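The RNA of neutrophils (H PMNs, n = 5 libraries) and of monocytes (H MONOs, n = 3 libraries) from the blood of healthy dogs was compared, so that the difference between both myeloid lineages could be read in the absence of a tumor. The 8 libraries were those labelled H PMN or H Mono among the 40 libraries of the series. H PMNs had been sorted as CD5-CD21-MHCII-CD11b+CADO48A+ cells from the dense pellet of the blood after red cells were lysed, and H MONOs as CD5-CD21-MHCII+CD11b+CD14+ cells from the mononuclear layer of a density gradient. Lineage, fraction and handling therefore cannot be told apart in these libraries, and the levels of the sorting antigens (MHC class II, CD14 and CADO48A) would not be findings. The labels give no treatment, breed or age of the healthy dogs. They name no dog, so that it is not known whether a dog gave cells to both populations, and p-values measure the spread between these libraries. Where the lineages of tumor-bearing dogs are set beside them, these are C PMNs (n = 10) and C MONOs (n = 8) by the labels, sorted with the same markers. The paper reports fewer PMN samples of tumor-bearing dogs than the labels give, and the additional library is not identified. All healthy libraries belong to a single library series by their titles, to which 6 of the C PMN and 4 of the C MONO libraries also belong, while 4 of each belong to another series.

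Neutrophils are short-lived granulocytes that leave the bone marrow with ready-made granule proteins and are the first cells to reach infected tissue, where they ingest microbes, release granules and produce reactive oxygen species. Monocytes circulate for longer, present antigen through MHC class II and mature into macrophages or dendritic cells in tissue. Both arise from a common myeloid progenitor, and neutrophils are known for condensed, lobed nuclei and a low RNA content per cell. Levels are shares of a library, so that fewer cells of a type and less RNA per cell cannot be told apart. The genes are given here by level, size of difference and length, because 0 of the 24580 Ensembl gene IDs in the files could be paired with a symbol. Marker genes of other blood cells could not be looked up for the same reason.

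The libraries held between 28298329 and 60473238 counts on genes in H PMNs and between 34302971 and 47962042 in H MONOs. Within each population, each pair of libraries differed by more than counting error, with a chi-square per degree of freedom of at least 96.7 in H PMNs and at least 103 in H MONOs. This covers counting error only, since amplified reads are not independent molecules, and no pair agreed within it. H PMN libraries 4 and 5 had at least 1 count on 17659 and 18198 genes, against 9177 to 15773 in the other 38 libraries of the series. Of these genes, 1288 had a count in both libraries and in none of the other 6 healthy libraries, with a median of 4 counts, and together they took 0.0180% of the counts of both libraries. None of the 1288 passed the filter on low counts, and the part of these libraries in the results was measured by leaving them out.

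The sorted populations were first checked with genes that separate the lineages in other dogs. From the tumor-bearing dogs alone, 40 genes were taken as PMN-restricted and 50 genes as MONO-restricted, each with at least 50 CPM (counts scaled to the library's total) in its lineage and at least 50-fold less in the other. The 40 PMN-restricted genes summed to 72623, 76495, 64571, 78278 and 55461 CPM in H PMNs and to 617, 691 and 384 CPM in H MONOs. The 50 MONO-restricted genes summed to 101372, 118194 and 106757 CPM in H MONOs and to 383, 542, 433, 851 and 607 CPM in H PMNs. Each population thus carried the other lineage's genes at 0.352% to 0.995% of the level in the lineage itself. All 40 and all 50 genes were called between H PMNs and H MONOs in the same direction as in the tumor-bearing dogs. Over all genes tested, 60.5% were called between H PMNs and H MONOs. Direction alone is a weak check, since 98.1% of the genes called in healthy dogs and tested in tumor-bearing dogs had the same direction. The labels were kept on the summed levels.

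Most of the genes that passed the filter on low counts differed between the lineages in the main fit. Of the 12557 genes tested, 7600 (60.5%) were called at a false discovery rate (FDR) of at most 0.05 with edgeR's quasi-likelihood test. H PMNs were higher for 3590 of them (28.6% of the genes tested) and H MONOs for 4010 (31.9%). The differences were larger on the monocyte side: the median fold was 3.72 among genes higher in H PMNs and 6.87 among genes higher in H MONOs. A difference of at least 8-fold was found for 956 genes higher in H PMNs and for 1837 genes higher in H MONOs. A difference of at least 128-fold was found for 194 and 232 genes. Of the genes at least 8-fold apart, 325 of the 956 and 355 of the 1837 had a mean under 1 TPM over both populations. TPM are shares of a library's transcripts, per gene length. At this level the lower lineage can hold few or no counts, so that the size of a fold is uncertain. At least 2-fold differences made up 6702 of the 7600 calls.

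The direction of small differences depended on how the libraries were scaled. The scaling by trimmed mean of M-values (TMM) gave factors of 0.724 to 0.952 to the H PMN libraries and 1.31 to 1.47 to the H MONO libraries, and left the median over all tested genes at a log2 fold change of -0.06. Scaling by library size alone moved that median to -0.80, and 7722 genes were then called, of which H PMNs were higher for 2093 (27.1% of calls, against 47.2% with TMM). All 4010 genes called higher in H MONOs were called in the same direction with both scalings. Of the 3590 genes higher in H PMNs, 2093 were called with both, and 187 turned to the monocyte side without being called there. The large differences were little affected: 905 of the 956 genes at least 8-fold higher in H PMNs were called with both scalings, as were all 1837 on the monocyte side.

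The same dependence was seen in the separation of the libraries. In TMM-scaled CPM, the lowest H PMN library was above the highest H MONO library for 3459 genes (27.5% of those tested), and the reverse held for 4116 (32.8%). In the deposited CPM, which are scaled to the library total, these counts were 2058 (16.4%) and 5639 (44.9%). The 2058 and the 4116 genes did not overlap between populations on either scale. Among the called genes, 91.6% of those higher in H PMNs and 95.4% of those higher in H MONOs had no overlap in TMM-scaled CPM.

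**Figure D1:**
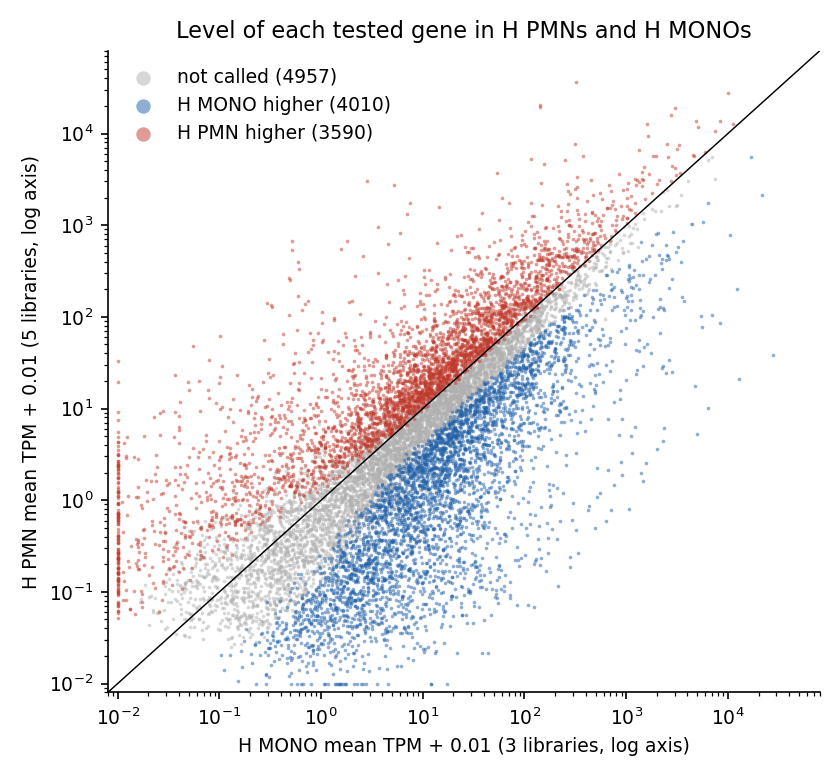
Mean TPM (a share of the library's transcripts, per gene length) of each tested gene in the 3 H MONO libraries (x axis) and the 5 H PMN libraries (y axis), both on log axes with 0.01 added, and colored by the edgeR call after TMM scaling. The line marks equal TPM. The 4957 genes that were not called lie mostly just under it, since TPM are shares of a library's total and TMM scaling is not, and the 3590 genes higher in H PMNs and 4010 higher in H MONOs lie on either side of them.

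The lineages also differed in where along the range of levels their genes stood. Levels between genes are given as TPM. Among the 164 genes with a mean of at least 1000 TPM over both populations, 144 (87.8%) were called, and 90 of these were higher in H PMNs. Between 1 and 10 TPM, 2741 of 4642 genes (59.0%) were called, and 1749 of these were higher in H MONOs. The monocyte side thus held 63.8% of the calls at 1 to 10 TPM and the neutrophil side 62.5% of the calls at 1000 TPM and above. Genes under 1 TPM were called least often (40.3% of 2348), and the monocyte side held 52.8% of these calls. These shares rest on TMM scaling, and the power of the test rises with the level.

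The lineages shared some of their most abundant genes. Only 3 of the 10 most abundant genes of H PMNs were also among the 10 most abundant of H MONOs, and the lists of the first 100 shared 41 genes and those of the first 500 shared 273. The 10 leading genes of H PMNs had a median rank of 47 in H MONOs, and the 10 leading genes of H MONOs a median rank of 129 in H PMNs. All 10 leading genes of H PMNs were called higher in H PMNs, 6 of them by at least 8-fold. Of the 10 leading genes of H MONOs, 7 were called higher in H MONOs and 3 in H PMNs. Picking genes by their level in a population favors calls on its side. Over all genes tested, 28.6% were called higher in H PMNs and 31.9% in H MONOs. Among genes with a mean of at least 1000 TPM, 87.8% were called, and 62.5% of these calls were on the neutrophil side.

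The single most abundant gene of H MONOs was nearly constant among them and scarce in H PMNs. It held 27386, 27937 and 27978 TPM in the H MONO libraries and 18.7, 63.1, 14.9, 47.2 and 48.1 TPM in the H PMN libraries. It led all 3 H MONO libraries and stood at rank 2290 in the mean of H PMNs. Its log2 fold change (H PMN minus H MONO) was -8.93 ± 0.51 (SE), with an FDR of 3.18e-07. The fourth most abundant gene of H MONOs behaved alike, with 12954 ± 1054 TPM (SD, n = 3) in H MONOs and 21.0 ± 11.5 TPM (SD, n = 5) in H PMNs.

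The most abundant gene of H PMNs varied more between libraries. It held 36824, 41373, 33456, 44670 and 24452 TPM in H PMNs and 356, 390 and 219 TPM in H MONOs, with a log2 fold change of 7.39 ± 0.46 (SE) and an FDR of 4.67e-07. Libraries 3 and 5 were led instead by the gene that was second in the mean, at 36405 and 32724 TPM. That second gene was abundant in both lineages: it held 20895 to 36405 TPM in H PMNs and 9702, 8923 and 11492 TPM in H MONOs, where it ranked 8. The populations did not overlap for either gene.

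Some abundant genes of H MONOs were abundant in H PMNs as well. The third most abundant gene of H MONOs held 11579, 22108 and 16781 TPM there and 7833, 2715, 4901, 3716 and 8899 TPM in H PMNs. Its log2 fold change was -1.03 ± 0.37 (SE), with an FDR of 0.0312, and the populations did not overlap. Over the 50 most abundant genes of each population, the coefficient of variation between libraries ran from 3.59% to 48.1% in H PMNs (median 17.5%) and from 1.19% to 82.8% in H MONOs (median 15.6%).

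Genes that differed strongly accounted for a large part of each transcriptome. These sets were chosen on the healthy libraries, so that their shares there are a description. The 956 genes at least 8-fold higher in H PMNs took 26.5% to 29.5% of the TPM of H PMN libraries and 1.93% to 2.25% in H MONOs. The 1837 genes at least 8-fold higher in H MONOs took 24.7% to 26.2% of the TPM of H MONO libraries and 0.547% to 0.716% in H PMNs. In the tumor-bearing dogs, which took no part in the choice, the first set held 23.3% to 38.6% of the TPM of C PMNs and 1.90% to 2.80% in C MONOs. The second set held 21.9% to 26.8% in C MONOs and 0.359% to 1.5% in C PMNs. The monocyte set, with more genes, thus took a similar share of its own transcriptome.

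Fewer genes reached 1 TPM in H PMNs than in H MONOs, but the number of genes detected depended on the measure. At least 1 TPM was reached by 8422, 8535, 8622, 8807 and 9549 genes in H PMNs and by 10379, 10054 and 10607 genes in H MONOs. The means were 8787 ± 449 (SD, n = 5) and 10347 ± 278 (SD, n = 3), and the populations did not overlap (exact permutation test, two-sided, p = 0.0357, the smallest that 56 divisions of 5 and 3 libraries allow, and 0.0552 when adjusted over all 17 library measures tested). After thinning to 28298329 counts, at least 10 counts were found on 9837, 10013, 9991, 10681 and 11834 genes in H PMNs and on 11602, 11344 and 11745 genes in H MONOs. H PMN library 5 was then above all H MONO libraries, and the mean difference of 1092 genes did not pass the test (exact permutation p = 0.143). Genes with at least 1 count went the other way without passing the test, with 15350 ± 2377 (SD, n = 5) in H PMNs and 14202 ± 189 (SD, n = 3) in H MONOs (exact permutation p = 0.714). Without H PMN libraries 4 and 5, the thinned difference was 1617 genes, with p = 0.1 by the exact test, the smallest that 3 against 3 libraries allow.

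The concentration of transcripts separated the populations on the TPM scale. The 10 most abundant genes took 19.5%, 19.3%, 19.9%, 20.5% and 16.9% of TPM in H PMNs and 13.2%, 15.3% and 14.2% in H MONOs. A sum of 50% of TPM was reached with the 84, 92, 95, 94 and 115 most abundant genes in H PMNs and with 159, 147 and 164 genes in H MONOs. Both measures gave an exact permutation p = 0.0357 (0.0552 when adjusted over all 17 library measures tested). In raw counts, which weight a gene by its length, the 10 leading genes took 14.98% ± 0.71 (SD, n = 5) in H PMNs and 13.5% ± 1.1 (SD, n = 3) in H MONOs. The populations then overlapped, and the exact permutation p was 0.0714. The 50 leading genes took 33.8% ± 1.5 and 25.8% ± 1.5 of the counts without overlap (exact permutation p = 0.0357, adjusted 0.0552).

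**Figure D2:**
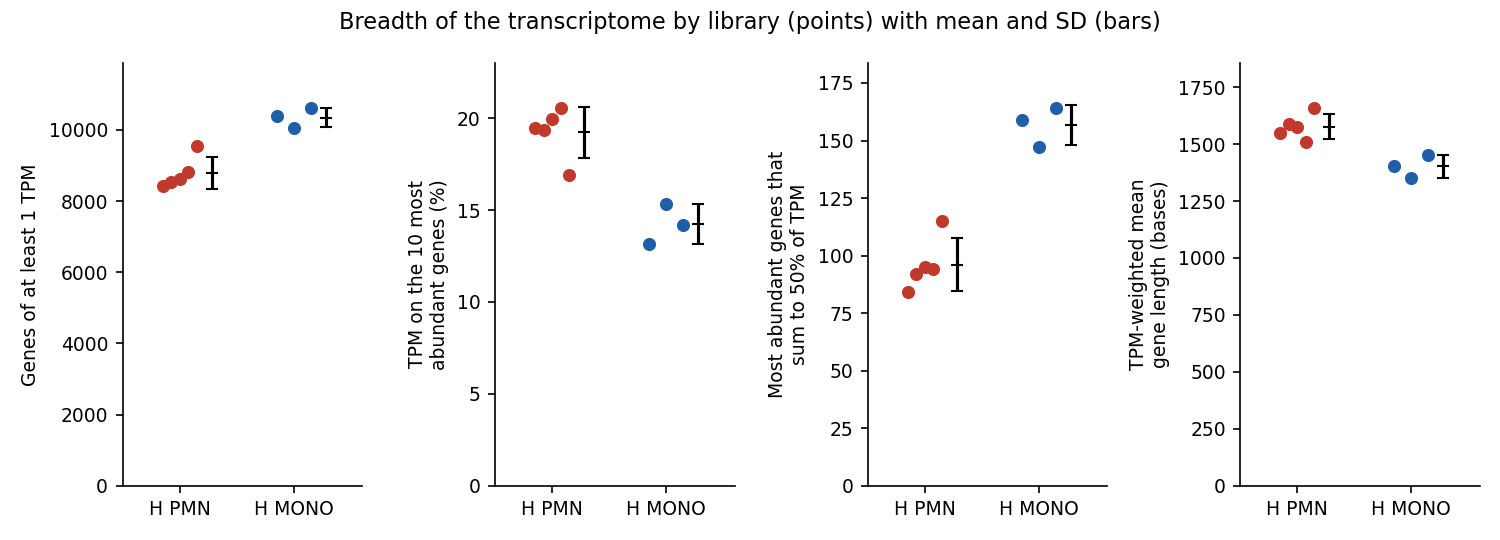
The panels show 4 measures for each library of H PMNs (red, n = 5) and H MONOs (blue, n = 3), each on an axis that starts at 0: the number of genes of at least 1 TPM, the share of TPM on the 10 most abundant genes, the number of most abundant genes that sum to 50% of TPM and the TPM-weighted mean gene length in bases. Bars give the mean and SD. The populations do not overlap in any of the panels, and H PMN library 5 lies nearest to the H MONOs in the first 3.

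The same measures were read in the tumor-bearing dogs. At least 1 TPM was reached by 3453 to 8982 genes in C PMNs (median 8270, n = 10) and by 9890 to 10409 genes in C MONOs (median 10301, n = 8), without overlap (exact permutation p = 4.57e-05). The number of genes that summed to 50% of TPM was 7 to 108 in C PMNs and 139 to 162 in C MONOs (exact permutation p = 4.57e-05). The lowest C PMN values in both came from a library of 4229857 counts. Without it the ranges of C PMNs were 7647 to 8982 genes and 40 to 108 genes, and the populations remained apart (exact permutation p = 8.23e-05 for each). They were also apart in both measures within the series of the healthy libraries, with 6 C PMN and 4 C MONO libraries (exact permutation p = 0.00952 for each).

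Single genes with the clearest separation were taken by the smallest FDR without overlap between the libraries. ENSCAFG00000019943 held 1272, 1299, 1058, 1020 and 1157 CPM in H PMNs and 2.21, 1.27 and 2.13 CPM in H MONOs. The 5 neutrophil values lay close together, and the 3 monocyte values were far under them, both of which the rule of choice favors. The TMM-scaled log2 fold change was 10.05 ± 0.37 (SE), with an FDR of 9.2e-08. ENSCAFG00000017916 was less abundant, with 113, 135, 130, 107 and 143 CPM in H PMNs and 1.83, 1.73 and 2.24 CPM in H MONOs. Its log2 fold change was 6.77 ± 0.25 (SE), at the same FDR.

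On the monocyte side, ENSCAFG00000000812 held 1821, 2665 and 2384 CPM in H MONOs and 2.15, 3.42, 1.84, 2.86 and 3.96 CPM in H PMNs. Its log2 fold change was -8.91 ± 0.31 (SE), with an FDR of 9.2e-08. ENSCAFG00000022742 held 1526, 2239 and 1712 CPM in H MONOs and 15.6, 16.8, 21.2, 19.0 and 26.1 CPM in H PMNs, with a log2 fold change of -5.81 ± 0.22 (SE). It was thus still read at 600 to 1146 counts in each H PMN library, and none of the 4 genes was absent from the other lineage.

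The ranges in tumor-bearing dogs were wider for all 4 genes. The genes were chosen on the healthy libraries, and that rule favors a narrow spread there. The tumor-bearing ranges also cover more libraries and a further series, so that the widths are not a comparison of variability. ENSCAFG00000019943 ranged from 6.38 to 2633 CPM in C PMNs (median 747) and from 0.0733 to 11.1 CPM in C MONOs (median 6.44). ENSCAFG00000017916 ranged from 0.473 to 139 CPM and from 0.293 to 9.04 CPM. For both genes the ranges overlapped only through the C PMN library of 4229857 counts, which held 27 and 2 counts of them. Without it C PMNs ranged from 463 to 2633 CPM and from 39.6 to 139 CPM, above all C MONOs. ENSCAFG00000000812 ranged from 1.29 to 29.4 CPM in C PMNs and from 1019 to 4334 CPM in C MONOs, and ENSCAFG00000022742 from 4.59 to 125 CPM (up to 49.1 CPM without that library) and from 749 to 2070 CPM, both without overlap. All 4 were called between C PMNs and C MONOs in the same direction, with log2 fold changes of 8.26, 5.15, -7.05 and -3.08 and FDRs of 1.27e-07, 1.16e-06, 1.3e-06 and 0.00293.

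**Figure D3:**
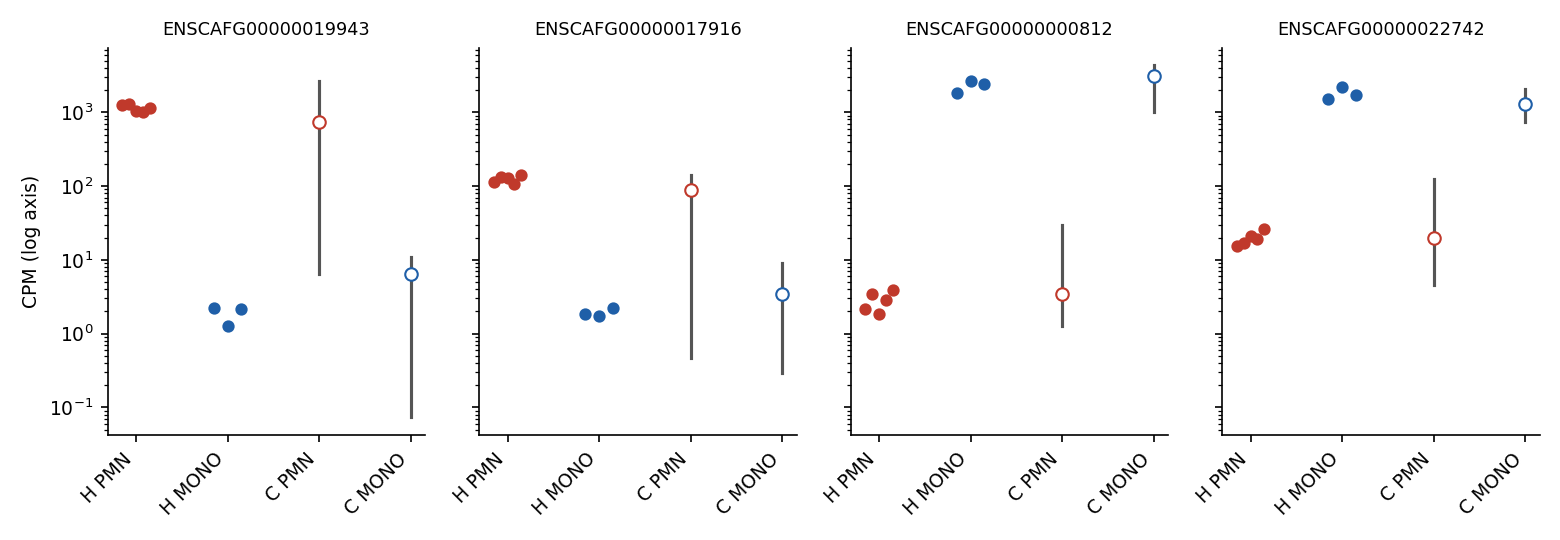
CPM on a log axis of the 4 named genes. Filled points are the single libraries of H PMNs (red, n = 5) and H MONOs (blue, n = 3), and open points with lines are the median and range of C PMNs (n = 10) and C MONOs (n = 8). The healthy populations are far apart for each gene, while the ranges of C PMNs and C MONOs overlap for the 2 genes on the left through 1 C PMN library of 4229857 counts.

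Genes without any count in a lineage were rare. Only 9 genes had no count in any H MONO library and a mean of at least 5 CPM in H PMNs, and only 1 gene had no count in any H PMN library and at least 5 CPM in H MONOs. Against a floor of 3 counts per library, the means of the 9 genes were at least 72.3-fold to at least 279-fold higher in H PMNs, where they lay between 5.22 and 20.1 CPM. Since the rule asks for a mean of 5 CPM, the lower end of such folds was set in advance. The most abundant of them held 9.50 to 34.6 CPM in the 5 H PMN libraries. Another was uneven, with 0.109 to 39.4 CPM in H PMNs and 54.0% of its sum in 1 library. Its lowest H PMN library held 6 counts, close to the floor. The 1 gene without a count in H PMNs held 5.44 to 8.53 CPM in H MONOs and was at least 88.0-fold higher there.

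The number of such genes rested on the number of libraries and on the limit. It was 16 without H MONO library 1 and 17 without H MONO library 2 for the genes without a count in H MONOs, and 12 without H PMN library 5 for those without a count in H PMNs. When up to 3 counts were allowed in every library, 20 and 31 genes met the rule. The 9 genes were not wholly without counts in C MONOs, in which their highest count in a library was between 1 and 30. The 1 gene had no count in any of the 10 C PMN libraries and over 3 counts in all 8 C MONO libraries. At least 10 counts were found on 15428 genes in at least 1 of the 8 libraries and on 8636 genes in all 8. Of the 15428 genes, 161 passed in all H PMN libraries and in no H MONO library. The reverse held for 521 genes. The rules were unlike, since the first asked 5 libraries to pass and 3 to fail, and the second 3 and 5. The counts were not thinned to equal depth, so that these numbers do not compare the lineages.

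Few genes could be shown to differ by no more than a small bound. The rule asks for a narrow interval, so that the number depends on the precision of the fit as well as on the genes. The 95% interval of the log2 fold change lay within ±0.58 (1.49-fold) for 140 genes (1.11% of those tested). Their median level was 34.9 TPM, against 7.53 TPM over all genes tested. The most abundant of them had a log2 fold change of -0.12 (95% interval -0.51 to 0.28). In deposited CPM it held 1562 ± 199 (SD, n = 5) in H PMNs and 2849 ± 196 (SD, n = 3) in H MONOs, so that steadiness here is relative to the TMM scaling. A gene that was not called was therefore not shown to be equal: 4957 genes were not called, and 140 genes had an interval within the bound.

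Gene length differed between the sides. It was no criterion for the calls, but at a given TPM a longer gene draws more counts. Length therefore enters the filter and the power of the test. The length behind each TPM was recovered from the ratio of counts to TPM for 22366 of the 24580 gene IDs, as whole bases within 0.01 up to a common factor, with the shortest gene set at 30 bases. The genes called higher in H PMNs had a median length of 2459 bases, against 2079 bases for those higher in H MONOs and 2178 bases over all genes tested. Between 10 and 100 TPM the medians were 2616 bases (1473 genes) and 1617 bases (1384 genes). Between 100 and 1000 TPM they were 1537 bases (588 genes) and 1173 bases (323 genes). Between 1 and 10 TPM they were 2901 and 2622 bases. Under 1 TPM they were close, at 3289 and 3350 bases. Which genes were called higher in H PMNs rests on TMM scaling. Among genes at least 8-fold apart, the medians at 1 to 10 TPM were 1876 bases on the H PMN side and 2219 on the H MONO side. In the other classes of level the H PMN side had the longer median, narrowly so under 1 TPM (3108 and 3087 bases). Genes not called had medians of 1807 bases at 10 to 100 TPM, 933 bases at 100 to 1000 TPM and 2802 bases under 1 TPM. Genes are not independent replicates, and no test was made over them.

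**Figure D4:**
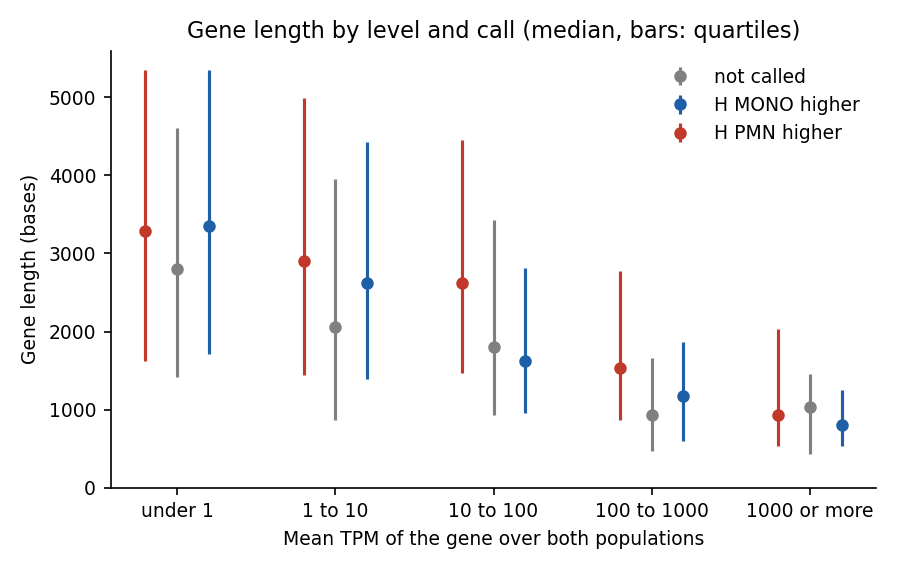
Gene length in bases by the mean TPM of the gene over both populations, for genes called higher in H PMNs (red), genes called higher in H MONOs (blue) and genes not called (grey). Points are medians and bars run from the lower to the upper quartile. Among called genes the median length falls with each step in level, and the widest gap between the red and blue medians is at 10 to 100 TPM (2616 and 1617 bases).

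Across 4 equal classes of gene length, H PMNs were higher for 43.5% of the calls among the shortest genes (up to 1113 bases) and for 53.7% among the longest (over 4033 bases). Called genes made up 55.3% of the shortest class and 62.5% of the longest. The median log2 fold change moved from -0.12 to 0.14 between these classes. Averaged over each library with TPM as weights, gene length was 1550, 1589, 1574, 1510 and 1658 bases in H PMNs and 1403, 1353 and 1451 bases in H MONOs. The populations did not overlap (exact permutation test, two-sided, p = 0.0357, and 0.0552 when adjusted over all 17 library measures tested). In the tumor-bearing dogs the mean was 912 to 1662 bases in C PMNs and 1311 to 1427 bases in C MONOs (exact permutation p = 0.128). The value of 912 bases came from the library of 4229857 counts, and without it C PMNs held 1435 to 1662 bases, above all C MONOs (exact permutation p = 8.23e-05). Within the series of the healthy libraries they were also apart (exact permutation p = 0.00952). RNA integrity per library is not given in the sources used here, and its part in these lengths was not tested.

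Libraries of a lineage were much closer to each other than to the other lineage. Over the genes tested, in log2(CPM + 1), Spearman's rho was 0.951 to 0.967 between H PMN libraries, 0.965 to 0.976 between H MONO libraries and 0.699 to 0.745 across lineages. The root mean square difference was 0.54 to 0.68, 0.52 to 0.65 and 1.90 to 2.12 on the log2 scale. H PMN libraries 4 and 5 lay slightly nearer to the H MONOs (1.90 to 1.99) than the other 3 H PMN libraries (2.02 to 2.12).

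Which lineage varied more among its libraries depended on the measure. The common biological coefficient of variation of edgeR was 0.498 in H PMNs and 0.405 in H MONOs, and it ran from 0.475 to 0.524 and from 0.356 to 0.424 when each library was left out. Over the 5873 genes of at least 5 CPM in both, the median coefficient of variation between libraries was 23.7% in H PMNs and 20.5% in H MONOs. The median root mean square difference between libraries was instead larger in H MONOs (0.64, against 0.60 on the log2 scale). The difference in spread was not tested. At least 5 CPM was reached by 6350 genes in H PMNs and 8186 in H MONOs.

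The lineage difference was finally read in the tumor-bearing dogs, which share no library with the healthy ones. Of 11261 genes tested between C PMNs and C MONOs, 7387 (65.6%) were called, and 7562 within the series of the healthy libraries. Of the 7600 genes called in healthy dogs, 7109 were tested there, 6977 (98.1%) had the same direction and 6110 were called in it. These 6110 were 80.4% of the calls in healthy dogs and 82.7% of the calls in tumor-bearing dogs. Of the 4101 genes that were tested but not called in healthy dogs, 1253 (30.6%) were called in tumor-bearing dogs. For the genes at least 8-fold higher in H PMNs and tested in both, the median log2 fold change was 4.34 in healthy and 4.26 in tumor-bearing dogs. For those at least 8-fold higher in H MONOs, the medians of the size were 4.43 and 4.05. These medians cover 720 of the 956 and 1635 of the 1837 genes. Both sets were chosen on the healthy values, which favors a larger median in healthy dogs.

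Only 2 genes were called in opposite directions, both higher in H MONOs among the healthy dogs. The first held 0.777 to 2.52 CPM in H PMNs and 8.71 to 12.6 CPM in H MONOs, and 0.366 to 63.1 CPM in C PMNs (median 2.25) and 5.12 to 10.5 CPM in C MONOs (median 7.03). The second held 0.128 to 0.287 CPM in H PMNs and 0.904 to 1.16 CPM in H MONOs, and 0.0751 to 18.8 CPM in C PMNs (median 4.84) and 0.330 to 5.62 CPM in C MONOs (median 1.75). When the C PMN library of 4229857 counts was left out, 8201 genes were called and 1 gene was of opposite direction. The difference between the lineage differences of healthy and tumor-bearing dogs was tested itself in a fit of the 26 libraries. With edgeR, 0 of 13864 genes (0%) passed an FDR of 0.05 and 712 had an unadjusted p under 0.05, while DESeq2 called 6 genes. Neither of the 2 genes passed that test (FDR 0.823 and 0.653).

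**Figure D5:**
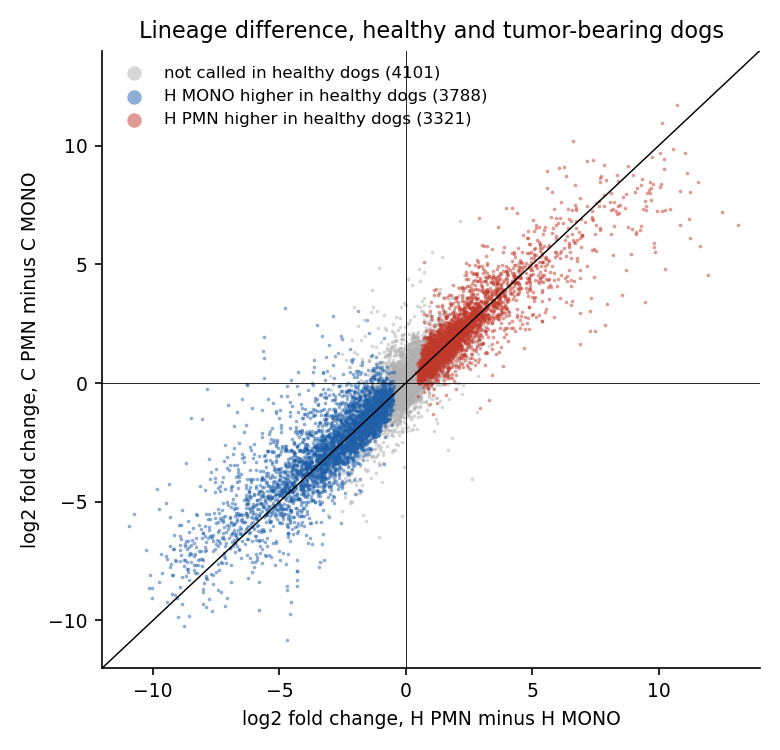
Log2 fold change between the lineages in healthy dogs (x axis, H PMN minus H MONO) and in tumor-bearing dogs (y axis, C PMN minus C MONO), for the genes tested in both, colored by the call in healthy dogs. The line marks equal values. The 3321 genes higher in H PMNs and the 3788 higher in H MONOs lie mostly in the quadrants of equal direction.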

How the data were processed

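Smart-seq2 libraries of sorted blood cells were read as 75 bp pairs. The authors used skewer for trimming, HISAT2 for alignment to the dog build CanFam3.1 plus spike-in sequences, and Picard 1.92 to mark duplicates, whose removal is not stated. The authors deposited featureCounts (Subread 1.5.0) counts of uniquely mapped exonic reads without normalization, and CPM and TPM made from them. Strand is not given in the sources used here.

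Counts of 5 H PMN and 3 H MONO libraries were fitted with edgeR 4.0.16 (R 4.3.3) by the quasi-likelihood test, after filterByExpr and TMM scaling, with Benjamini-Hochberg adjustment and an FDR of 0.05. limma 3.58.1 and DESeq2 1.42.0 gave alternatives. Library measures were compared with exact permutation tests (scipy 1.17.1), with thinning by a fixed seed. Fits were tested on simulated data. Members, lists and tests were chosen with earlier results of these data known. Named genes are the 2 IDs of each direction with the smallest FDR and no overlap. Lists of lineage genes from tumor-bearing dogs left out the C PMN library under 10000000 counts. Fixed gene lists by symbol and sequences were not used here, since no ID matched a symbol. Reads were not counted as molecules, so floors cover counting error only. The alternatives were other scalings, filters, tests and thresholds, all 40 libraries, the healthy libraries' series alone, and each library left out.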

Additional observations from a re-analysis of the deposited data

Results flagged for a closer look

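Among 28 measures of the 5 H PMN libraries, 3 had a library far from the other 4, by the gap to its nearest neighbor relative to the range. About 1 in 20 such groups would be picked out by chance. H PMN library 5 held 13.7% of its counts on its 10 most abundant genes, against 15.2% to 15.4% in the other 4. The same library held 15.1% of its TPM on the genes that were not called between the lineages, against 13.6% to 14.1%. H PMN library 4 had 144 genes of at least 1000 TPM, against 149 to 151.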

How the results depend on the processing

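The number of genes called between H PMNs and H MONOs stayed within 1.5 times of 7600 under every alternative run, between 5257 (all 40 libraries in a single fit) and 8320 (limma voom), and it was 6756 to 7513 when each library was left out. The number of genes tested differed between fits. Calls were 7600 of 12557 in the main fit, 5257 of 14467 with all 40 libraries and 7509 of 21034 with no filter beyond 1 count. In both of these alternatives the called genes were the smaller part of those tested. Calls of at least 2-fold were 4478 to 7129, and 6169 to 6703 with a library left out. Of the 7600 genes, between 65.3% and 99.0% were called again in the same direction and 0 in the opposite direction under each alternative. Without H PMN libraries 4 and 5, chosen after seeing the data, 7038 genes were called. The 4 named genes kept their direction and call throughout.

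The difference in detected genes was -1092 (H PMN minus H MONO) with thinning. Before adjustment it passed the exact permutation test at 1 CPM (-1607) and at 1 TPM (-1560), both with p = 0.0357. That is the smallest p that 56 divisions allow, and it was 0.0552 when adjusted over all 17 library measures. Leaving out a library gave -1433 to -934, and such designs cannot reach 0.05 (smallest p 0.0571 or 0.0952). The share of counts on 10 genes differed by 1.52 percentage points, and by 5.01 on the TPM scale and 8.00 with 50 genes. Both of the latter had an exact permutation p = 0.0357 (0.0552 when adjusted). Leaving out a library gave 1.01 to 2.12. The cause was not tested. Genes without a count in H MONOs numbered 9, but 45 at a mean of 1 CPM, 20 with up to 3 counts, and 7 to 17 with a library left out. Those without a count in H PMNs numbered 1, but 21, 31 and 1 to 12. DESeq2 called 6 genes for the difference between healthy and tumor-bearing dogs, where edgeR called 0 in each alternative fit, those without 1 library included. C PMNs against C MONOs gave 7206 to 8201 calls. No paired analysis was possible because the labels give the libraries no shared replicate numbers.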
